A study of Saccharomyces cerevisiae with 2 samples.

Results

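Heterozygous diploid deletion strains of budding yeast (Saccharomyces cerevisiae) that lack 1 copy of a gene for the CTD kinase CTDK-I, for Spt4, Spt5 or Spt6, or for the PAF1 complex were examined for their response to the loss of 1 copy of TUB1, the gene for the major alpha-tubulin. The set was chosen by gene symbol and comprised 10 genes, CTK1, CTK2, CTK3, SPT4, SPT5, SPT6, PAF1, CTR9, LEO1 and RTF1, of which 9 were among the 5325 genes with a named tag. Of these, 8 had 1 tag pair and stood among the 5219 strains with a ratio on both arrays. CTK1 had 2 tag pairs under its symbol and is described apart from that table, and CTR9 was not analysed here. The genes were picked with their ratios known, so these are given as a description, without a test.

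The question of the series is synthetic haploinsufficiency, meaning which heterozygous deletions change how well a diploid grows once a copy of TUB1 is lost as well. A pool of 5896 heterozygous knockout strains was transformed either with a tub1D::URA3 cassette, which deletes a copy of TUB1, or with a ura3D::URA3 cassette as the control. Both pools grew for 2 days at 30 °C on SC-Ura, a medium without uracil that selects transformants, and so both carry URA3. Each strain carries an upstream and a downstream tag, short barcodes that were amplified from genomic DNA, labelled with Cy3 for the tub1D pool and with Cy5 for the ura3D pool, and hybridised together on 2 arrays (experiments 1 and 2). Whether the experiments were separate transformations is not stated, so the spread between arrays may be technical, and the dyes were not swapped. The labels name total RNA as the molecule although they describe tags from genomic DNA, and which tag set is upstream is not given, so the sets are called first and second.

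Values are log2 ratios of both pools, centred so that the median of every array and tag set is 0, and their sign is the deposited one. The direction of the ratio is not stated. The scanner program usually divides red (Cy5) by green (Cy3), so positive values likely stand for fewer tags in the tub1D pool than in the ura3D pool. The TUB1 deletion strain, which would check this, gave 0 of 4 tag values. TUB3, the gene for the minor alpha-tubulin, was the most positive of the 5219 strains at 4.22 ± 0.32 (SD, n = 2 arrays).

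RNA polymerase II carries a long repeated tail, the CTD, whose phosphorylation changes as transcription proceeds from initiation to elongation. CTDK-I is a cyclin-dependent kinase of this tail, in which Ctk1 is the kinase, Ctk2 the cyclin and Ctk3 a further subunit that the active complex needs. Spt4 and Spt5 form a heterodimer (DSIF in animals) that travels with the polymerase, Spt6 is a histone chaperone that also binds the elongating polymerase, and the PAF1 complex links the polymerase to histone modification and to RNA 3′ end formation.

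Among CTDK-I strains CTK3 was positive on both arrays, as were 32.7% of all strains, while CTK2 and CTK1 gave mixed signs. Strains of the other member genes had mostly negative tag ratios. CTK3 was strongly positive by every tag on both arrays, CTK2 was positive by 3 of 4 tag values, and CTK1 had 1 tag pair that was positive throughout and 1 with a negative mean. The 6 measured members outside CTDK-I (SPT4, SPT5, SPT6, PAF1, LEO1 and RTF1) all had a negative ratio on both arrays, against 41.7% of all strains. Their means ran from -1.56 to -0.78. All 4 tag values were negative for SPT4, SPT6, LEO1 and RTF1, as in 20.1% of all strains. The first tag of SPT5 was positive on both arrays, at 0.31 and 0.54, and that of PAF1 was 0.07 on array 2. SPT6 was the member in which every tag on both arrays was at least 2-fold negative.

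**Figure D1:**
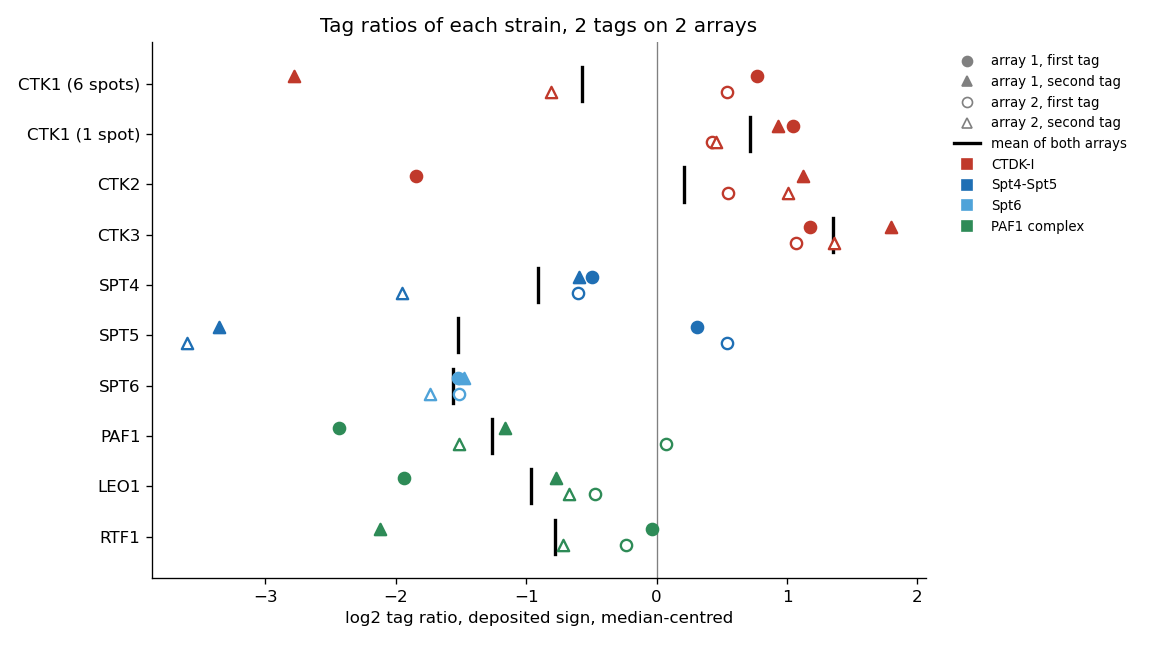
Log2 tag ratios (horizontal axis, deposited sign, median-centred) of each strain with a value, with CTK1 shown as its tag pairs of 6 spots and of 1 spot. Circles are the first tag, triangles the second, filled symbols array 1, open symbols array 2, and black bars the mean of both arrays. All 4 values of CTK3 lie above 1, all 4 of SPT6 below -1, and the tags of SPT5 lie on opposite sides of 0.

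Over the 8 strains the median ratio was -0.94, against -0.09 over all 5219 strains. A negative ratio on both arrays was found for 6 of 8, against 41.7% of all strains, and a positive ratio on both arrays for 1 of 8, CTK3, against 32.7%. CTK2 had opposite signs on the arrays, as did 25.5% of all strains. By limma, 0 strains of the whole table passed an adjusted p under 0.05 in the positive direction (0.0%) or in the negative direction (0.0%), while 476 positive and 612 negative strains had an unadjusted p under 0.05. No member is therefore called in that fit. With both tags kept and the array as a random block, limma called 360 positive strains (6.94% of 5191), CTK3 among them, and 170 negative strains (3.27%), SPT6 among them, and none of the other 6 members. The block fit took 4 values per strain from 2 arrays, so that tags counted as further values of a strain. Because the members were picked with these ratios known, nothing is read from those calls.

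CTK3 (YML112W, chromosome XIII) encodes the non-cyclin, non-kinase subunit of CTDK-I. Its first tag had a log2 ratio of 1.18 on array 1 and 1.07 on array 2, and its second tag 1.80 on array 1 and 1.36 on array 2. The arrays thus gave 1.49 and 1.21, a mean of 1.35 ± 0.19 (SD, n = 2) or 2.55-fold. All 4 values were positive, as in 20.4% of strains, and the difference between arrays, 0.27, was close to the median difference over all strains, 0.28. CTK3 ranked 15 from the positive end of 5219 strains. It was among the 0.405% of strains in which all 4 tag values were at least 2-fold positive.

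Each CTK3 tag was printed as 6 spots, and all 24 spots were positive. On array 1 they ran from 1.11 to 1.21 for the first tag and from 1.72 to 1.89 for the second. On array 2 they ran from 0.78 to 1.25 and from 1.06 to 1.51. The spot SDs, 0.04 and 0.07 on array 1, 0.21 and 0.16 on array 2, were close to the medians over all tags with 6 spots (0.06 for each tag set on array 1, and 0.21 and 0.14 on array 2).

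CTK2 (YJL006C, chromosome X) encodes the cyclin subunit. Its second tag was positive on both arrays, at 1.12 and 1.01, while its first tag had -1.84 on array 1 and 0.55 on array 2. The mean was 0.21 ± 0.81 (SD, n = 2), so the spread between arrays exceeded the ratio. The first tag was also the noisier, with a spot SD of 0.56 on array 1 and 0.74 on array 2, against 0.07 and 0.21 for the second tag. On array 2 its 6 spots ran from -0.31 to 1.83, and over both tags and arrays 17 of 24 spots were positive. The part of this scatter in the ratio was not tested.

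CTK1 (YKL139W, chromosome XI) encodes the catalytic subunit, and 2 tag pairs carry its symbol. Which of them belongs to the strain lacking CTK1 is not given, and the 5 repeated spots were joined to one of the pairs because their values matched it (summed distance over 4 measurements 0.67, against 5.46 for the other). The pair with 1 spot per tag was positive throughout, at 1.05 and 0.93 on array 1 and 0.42 and 0.46 on array 2, with a mean of 0.71 ± 0.39 (SD, n = 2). The first tag of the pair with 6 spots was positive as well, at 0.77 on array 1 and 0.54 on array 2. The second tag of that pair was negative, at -2.78 and -0.81, which brought its mean to -0.57 ± 0.61. The spots of that negative tag scattered on array 1 from -4.52 to -1.82, with an SD of 0.93 against 0.06 for the first tag.

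**Figure D2:**
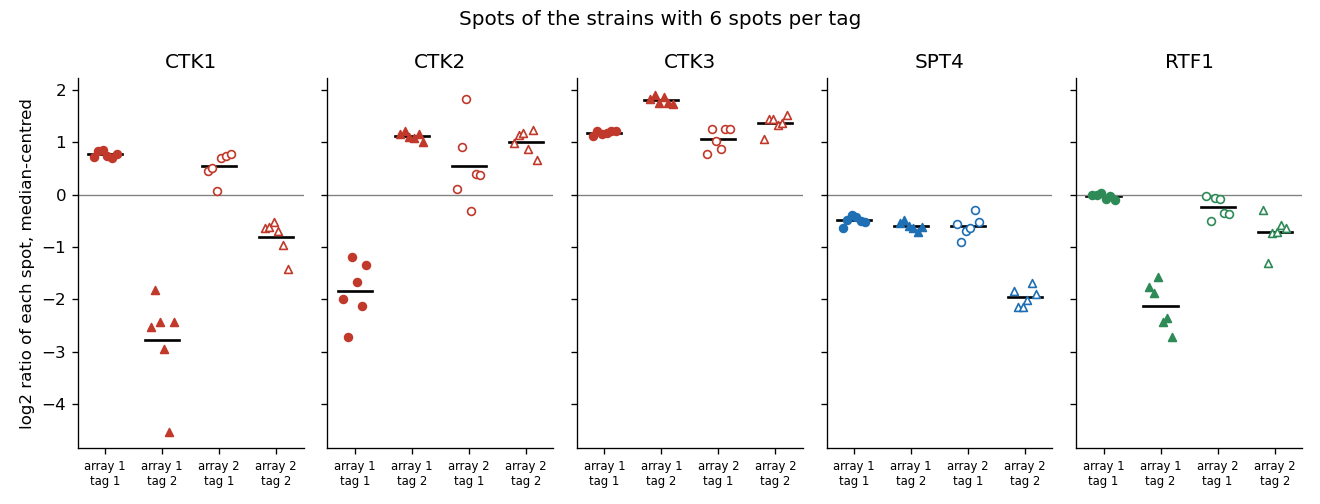
Log2 ratio of each spot (vertical axis, median-centred) for the tag pairs printed as 6 spots, by array and tag (horizontal axis). Symbols are single spots and bars their means. The spots of CTK3 are all positive, and the negative tags of CTK1, CTK2 and RTF1 on array 1 scatter more widely than the other tag of the same strain.

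SPT6 (YGR116W, chromosome VII), an essential gene, had the ratio farthest from 0 among the 8 strains. Its first tag gave -1.52 on array 1 and -1.51 on array 2, and its second tag -1.48 and -1.74. The 4 values lay within a narrow band on the negative side, and the mean was -1.56 ± 0.09 (SD, n = 2), a 2.96-fold difference between the pools. SPT6 ranked 204 from the negative end of 5219 strains. Only 0.597% of strains shared the property that all 4 tag values were at least 2-fold negative. Each SPT6 tag had 1 spot, so no spread between spots is known.

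SPT5 (YML010W, chromosome XIII), also essential, encodes the large subunit of the Spt4-Spt5 heterodimer and had nearly the same mean, -1.53 ± 0.01 (SD, n = 2), from very different tags. Its first tag was positive, at 0.31 on array 1 and 0.54 on array 2. Its second tag was far below 0, at -3.35 and -3.60. The SD between arrays does not show this disagreement, since each tag repeated its own value on both arrays. Tags of opposite sign on both arrays occurred in 17.4% of strains, but the SPT5 tags differed by 3.90 on average, and 29 of 5191 strains differed more. Both tags rested on 1 spot each, and the first tag alone would place SPT5 on the positive side at 0.42. SPT5 and SPT6 were the 2 members at least 2-fold negative on both arrays, a group that holds 3.74% of all strains.

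SPT4 (YGR063C, chromosome VII), the gene for the small and non-essential subunit, was negative by all 4 tag values, as were 20.1% of all strains. Its first tag gave -0.50 on array 1 and -0.60 on array 2, and its second tag -0.60 and -1.96, for a mean of -0.91 ± 0.52 (SD, n = 2). The second tag on array 2 stood apart from the other values of the strain. Its 6 spots there nevertheless lay together, from -2.14 to -1.69 with an SD of 0.18. Over both tags and arrays 0 of 24 SPT4 spots were positive.

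**Figure D3:**
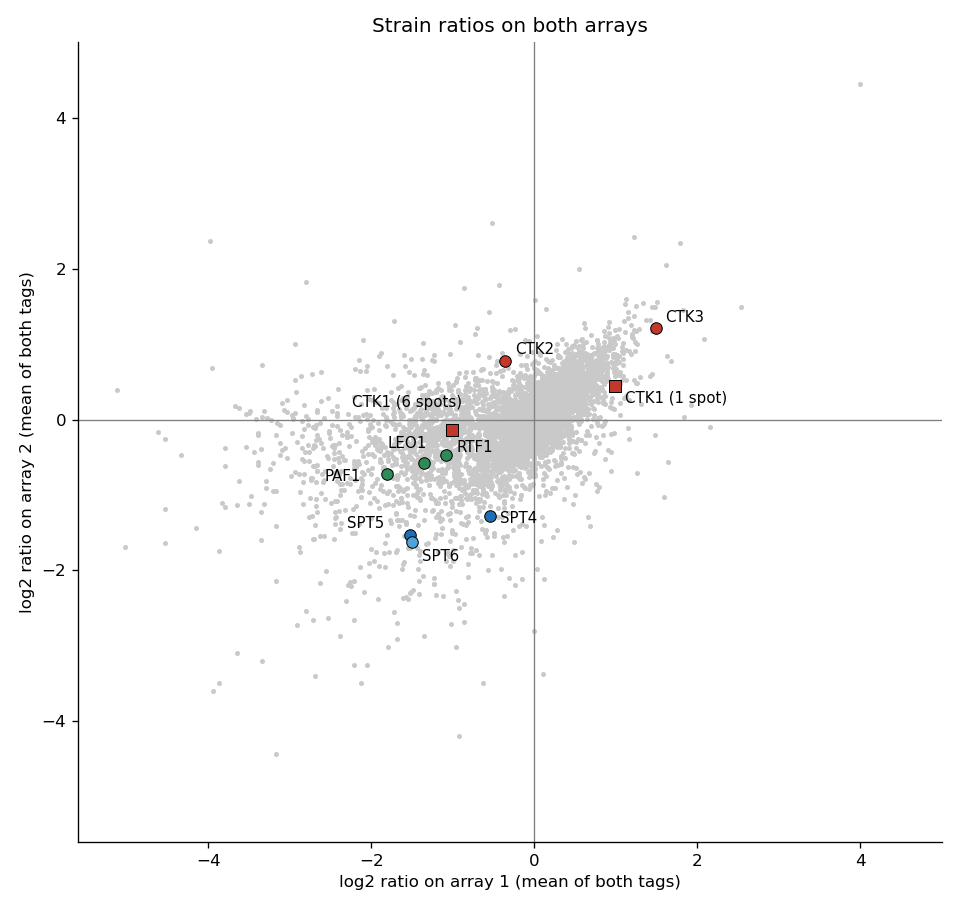
Log2 ratio on array 1 (horizontal axis) against array 2 (vertical axis), each the mean of both tags, for all 5219 strains in grey and the described strains in colour, with CTK1 tag pairs as squares. CTK3 lies at the positive edge of the cloud (1.49 and 1.21), SPT5 and SPT6 lie at about -1.5 on both arrays, and PAF1, LEO1 and RTF1 are lower on array 1 than on array 2.

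Measured strains of the PAF1 complex were negative on both arrays and more so on array 1. Of all strains 41.7% were negative on both arrays. PAF1 (YBR279W, chromosome II), which gives the complex its name, had -2.44 and -1.17 on array 1 and 0.07 and -1.51 on array 2. Its mean was -1.26 ± 0.76 (SD, n = 2), and its first tag was near 0 on array 2. LEO1 (YOR123C, chromosome XV), a subunit that contacts histones and nascent RNA, had -1.94 and -0.77 on array 1 and -0.47 and -0.67 on array 2. All 4 of its values were negative, as in 20.1% of all strains, and its mean was -0.96 ± 0.55.

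RTF1 (YGL244W, chromosome VII) encodes the subunit that promotes ubiquitylation of histone H2B. Its first tag was close to 0, at -0.04 on array 1 and -0.23 on array 2. Its second tag was negative, at -2.12 and -0.72. The mean of -0.78 ± 0.43 (SD, n = 2) thus rested mainly on the second tag, whose spots had an SD of 0.45 on array 1 against 0.05 for the first. Of its 24 spots 1 was positive, on the first tag. CDC73 (YLR418C), the gene for the remaining subunit of the complex and not in the chosen set, was negative too, with -0.85 and -0.74 on array 1, -0.43 and -0.53 on array 2 and a mean of -0.64 ± 0.22.

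Averaged over both tags, PAF1 had -1.80 on array 1 and -0.72 on array 2, LEO1 had -1.35 and -0.57, and RTF1 had -1.08 and -0.47. Array 1 had a longer negative tail in the whole table, where the lowest 5% of strains lay under -2.07, against -1.08 on array 2. The part of this tail in the PAF1 complex ratios was not tested.

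Ordered by mean ratio, CTK3 was followed by CTK2, RTF1, SPT4, LEO1, PAF1, SPT5 and SPT6. The interval between CTK3 and CTK2 (1.35 and 0.21) was larger than the SD of CTK3 but within 2 SDs of CTK2. CTK2 and RTF1 (0.21 and -0.78) differed by more than the SD of either, 0.81 and 0.43. These SDs are between arrays and do not show how far the tags disagreed. With the first tag set only, CTK2 at -0.65 lay below RTF1 at -0.13, and SPT5 at 0.42 lay above both. With the second tag set only, CTK2 had 1.06, RTF1 -1.42 and SPT5 -3.48. Neighbours among RTF1, SPT4, LEO1, PAF1 and SPT5 differed by less than the larger of their SDs, and SPT5 and SPT6 differed by less than the SD of SPT6. On array 1 the groups overlapped, since CTK2 at -0.36 lay close to SPT4 at -0.55, and the CTK1 pair with 6 spots at -1.01 lay below SPT4.

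The strains most like SPT6 over its 4 tag values, by Euclidean distance, were TAF5 (distance 0.20, mean -1.57 ± 0.04), a gene of TFIID and SAGA, MTR4 (0.45, mean -1.55 ± 0.06), an RNA helicase gene of the nuclear exosome pathway, and GFA1 (0.52, mean -1.57 ± 0.24), which acts in chitin precursor synthesis. All of these had 1 spot per tag.

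Strains of other genes that act with these factors were compared as lists, beside the 32.7% of all strains that were positive and the 41.7% that were negative on both arrays. Of 10 strains measured for other kinases, cyclins and phosphatases of the CTD, both arrays were positive for 5 and negative for 3, and the list median was 0.05. CCL1, the cyclin of the TFIIH kinase, was highest at 0.73 ± 0.25. SGV1 (BUR1), the kinase that acts on Spt5 and the CTD, was lowest at -2.05 ± 0.03, although its 4 tag values ran from -3.43 to -0.72. Of 11 other elongation factors measured, both arrays were positive for 0 and negative for 8, and the list median was -0.58, where 41.7% of all strains were negative. In that list DST1, the gene for TFIIS, was highest at 0.16 ± 0.83 and ASF1, a histone chaperone gene, lowest at -1.63 ± 0.10. The ASF1 mean joined a first tag at -3.45 and -3.78 to a second tag at 0.34 and 0.38.

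Histone methylation genes linked to elongation, which include those of COMPASS and of H2B ubiquitylation, had a median of 0.09, and both arrays were positive for 6 of 12 measured strains (32.7% of all strains) and negative for 4 (41.7% of all strains). BRE2, a COMPASS subunit gene, was highest at 0.58 ± 0.08 and SWD1, another, lowest at -1.91 ± 0.75, with a second tag at -4.52 and -2.21 and a first tag at -0.35 and -0.56. The Rpd3S deacetylase, which is recruited to transcribed genes, had a median of -0.06 over 5 strains, with both arrays positive for 1 and negative for 3. Its subunit gene RCO1 stood far below the rest at -3.67 ± 0.27, and UME1 was highest at 0.24 ± 0.25.

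Elongator strains had a median of -0.35, with both arrays negative for 3 of 4 measured and positive for 1. They ran from ELP3, the catalytic subunit, at -1.09 ± 0.58 to ELP4 at 0.08 ± 0.08. The ELP3 mean joined a second tag at -2.72 and -1.56 to a first tag at -0.29 and 0.19. In THO and TREX, which couple transcription to mRNA export, both arrays were negative for 4 of 7 strains and positive for 1, against 41.7% and 32.7% of all strains, and the list median was -0.32. MFT1 was lowest at -0.88 ± 0.83 and YRA1 highest at 0.42 ± 0.05. The second tag of MFT1 had -2.96 on array 1, while its other tag values ran from -0.37 to 0.02. In the main limma fit, on tags averaged per array, 0.0% of all strains were called in either direction. These lists therefore hold no strain called in that fit. Calls from the limma run that kept both tags are given for the whole table and the members, not for these lists.

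**Figure D4:**
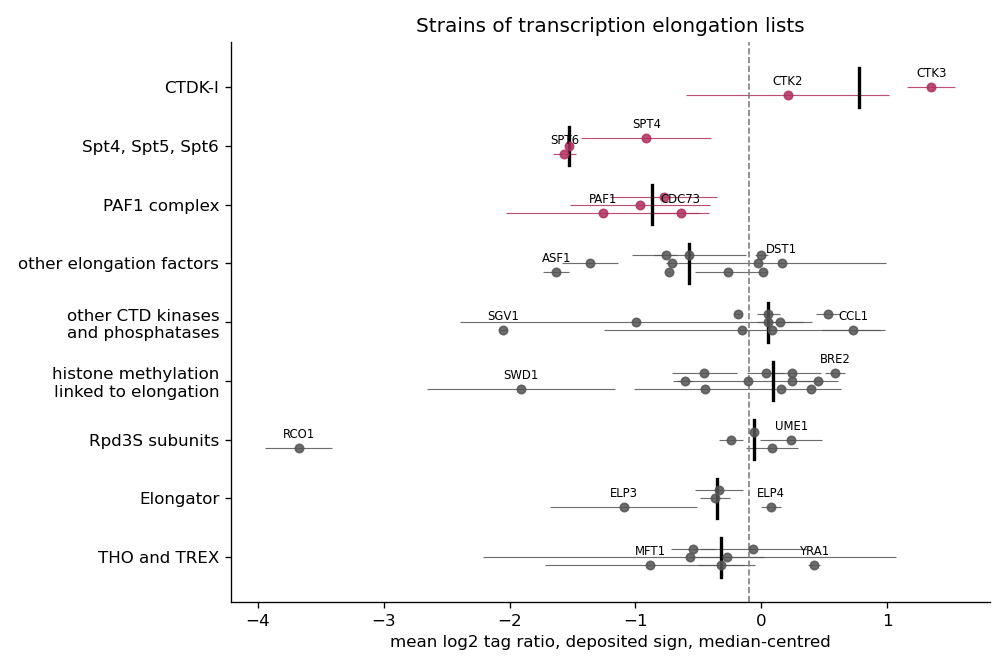
Mean log2 tag ratio (horizontal axis) of each measured strain in 9 lists of elongation genes. Points are strains, thin bars the SD over 2 arrays, thick bars the list median and the dashed line the median of all strains (-0.09), and the lowest and highest strain of each list are named. Measured strains of SPT4, SPT5, SPT6 and the PAF1 complex all lie left of the dashed line, and CTK2 and CTK3 lie right of it. CTK1, with 2 tag pairs, is not shown, and CTK2 had opposite signs on the arrays.

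Position on the chromosome was examined because the tub1D cassette enters at TUB1 on chromosome XIII. CTK3 and SPT5 are on that chromosome, with 25 protein-coding genes between CTK3 and TUB1 and 75 between SPT5 and TUB1, in the gene order of assembly R64. The 6 strains within 3 genes of CTK3 ranged from -0.55 to 0.49, all below CTK3, as were 99.7% of all strains. Its adjacent strains were DAT1 at 0.28 ± 0.42 and BUL2 at -0.02 ± 0.42.

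All 5 measured neighbours of CTK2 (0.21 ± 0.81) were lower than CTK2, as were 73.7% of all strains, with a neighbour median of -0.885. Around PAF1, LEO1 and RTF1 all 6 measured neighbours were higher than the member in each case, with medians of 0.13, -0.26 and -0.08. Of all strains 93.0%, 88.1% and 83.5% were higher than PAF1, LEO1 and RTF1, so such counts say little about position. SPT4, SPT5 and SPT6 each had measured neighbours lower than the member, 2 for SPT4 and 1 each for SPT5 and SPT6. RAD33, beside SPT5, had -1.54 ± 1.86, COX18 and VHT1, on either side of SPT4, had -1.49 ± 0.89 and -1.41 ± 1.39, and YGR111W, 3 genes from SPT6, had -2.09 ± 2.42. YGR117C, beside SPT6, had -1.36 ± 0.78. On the other side of SPT6, DAM1 had 0.32 ± 0.05. The SDs of those low neighbours were 0.78 or more, against 0.52, 0.01 and 0.09 for SPT4, SPT5 and SPT6. The SD of SPT5 does not show the disagreement of its tags, at 0.31 and 0.54 against -3.35 and -3.60. Whether position had a part in these ratios was not tested.

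**Figure D5:**
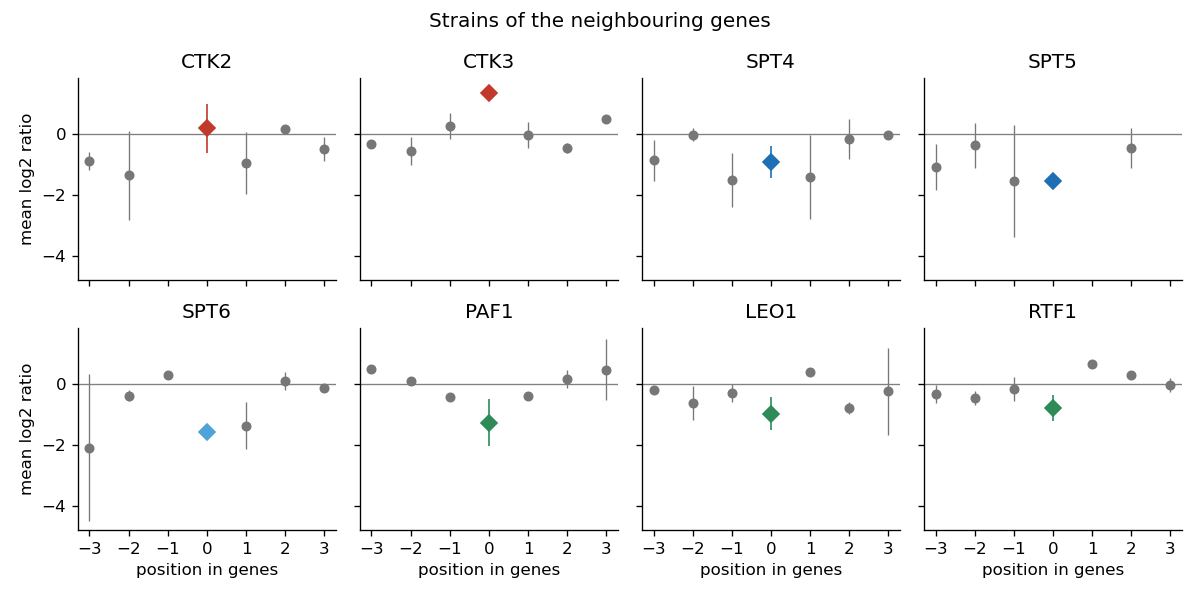
Mean log2 tag ratio (vertical axis) of each member (diamond, position 0) and of measured strains up to 3 protein-coding genes to either side (grey circles), with bars for the SD over 2 arrays. CTK3 lies above all 6 of its neighbours and PAF1, LEO1 and RTF1 below all 6 of theirs, while SPT4, SPT5 and SPT6 each have at least 1 neighbour at a lower ratio. Of all strains 99.7% lie below CTK3, and 93.0%, 88.1% and 83.5% lie above PAF1, LEO1 and RTF1.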

How the data were processed

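The deposited values are log2 ratios of the channels per spot, made from images analysed with GenePix 5.1, per the labels. All 40008 values correspond to linear ratios with 2 decimals (tolerance 0.001). The sources used here do not give the background correction, the normalization or the direction, and no spot intensities were analysed here. A filled-in linear ratio, found in 2 values, was treated as missing. Probes were named through the platform annotation and the NCBI gene table of R64. Symbols with neither 1 nor 6 spots per tag (105, CTK1 among them) were left out of the strain table.

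Spots of a tag were averaged, the median of every array and tag set was set to 0 (shifts of 0.12 on array 1 and 0.04 on array 2), and both tags were averaged per array. limma 3.58.1 (R 4.3.3, lmFit and eBayes, two-sided, Benjamini-Hochberg) was fitted to 5219 strains, and its code was first tested on simulated data. That test is not used here as a measure of what the fit can detect at the spread of these data. Tables used Python 3.11.15 and pandas 2.3.3. The 2 arrays limit the precision. The members and lists were chosen with earlier results of these data known. Named strains are all members, the highest and lowest of each list, the 3 nearest to the member farthest from 0, and adjacent strains.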

Additional observations from a re-analysis of the deposited data

How the results depend on the processing

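The median of the 8 strains stayed negative under every alternative run, from -1.31 with the second tag set only to -0.60 with the first; leaving out either array gave -1.22 and -0.64. The count of negative strains, 6, was 4 with the first tag set only and 6 or 7 when an array was left out. The count of positive strains, 1, became 2 with the first tag set only, 2 with the second, and 2 with the CTK1 pair of 1 spot added. With the CTK1 pair of 6 spots added it stayed at 1, and negative strains numbered 7. Both CTK1 alternatives were chosen after seeing the data. Leaving out an array gave 1 to 2. With both tags kept and the array as a random block, limma called 360 positive and 170 negative strains, against 0 in each direction. That fit took 4 values per strain, 2 tags on each of 2 arrays, so that tags counted as further values of a strain. The cause of the difference in calls was not tested. Under uncentred ratios, spot medians, quantile normalization, the smallest ratios as missing, single tag sets and no moderation it called 0, with 319 to 568 positive and 258 to 847 negative strains at an unadjusted p under 0.05. CTK2 turned negative with the first tag set only (-0.65) and without array 2 (-0.36, against 0.78 without array 1), and SPT5 turned positive with the first tag set only (0.42). Of 64 ratios recomputed over the 8 strains, 9 others moved by more than the SD between arrays without a change of sign. These moves came with uncentred ratios, single tag sets or quantile normalization, in CTK2, CTK3, SPT5, SPT6 and RTF1. No paired analysis was possible because the series has 1 group, compared within each array. Spot intensities, and thus signal over background, are unknown.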
